A study of Mus musculus with 3 samples.

Results

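The integrin and laminin genes form a family of 35 genes, 25 that encode integrin chains and 10 that encode laminin chains, chosen by name from among 20661 protein-coding genes on chromosomes 1 to 19. Accessible chromatin near them was read from ATAC-seq, in which a transposase cuts and tags open DNA, for a study of heterotopic ossification, in which bone forms outside the skeleton after injury; the cells were mouse mesenchymal stem cells. The 3 libraries were cells before injury (day 0), cells at day 7 after injury labelled immobilized, and cells at day 7 after injury labelled non-immobilized. The labels give no genotype, strain, age, number of animals, kind of injury, way of immobilizing or way of isolating the cells for any of the 3 groups. Since each group is a single library, differences between groups could not be set against a spread of replicates, and no test was made. Intervals are exact (Clopper-Pearson) 95% binomial intervals, which cover counting error only.

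Integrins are receptors built of 1 alpha and 1 beta chain that span the cell membrane and tie the matrix outside to the actin skeleton inside. The alpha chain largely sets the ligand: collagens, laminins, proteins with the tripeptide RGD such as fibronectin and vitronectin, or surface molecules of other cells. Laminins are cross-shaped trimers of an alpha, a beta and a gamma chain that make up much of the basement membrane around muscle fibres, vessels, nerves and epithelia, and in mesenchymal cells integrins are known for sensing the stiffness and load of the matrix.

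The files give, for each library, the summits of peaks, the single positions with the most cuts. Each list was reduced by score to its 47912 best summits, the length of the shortest list, a window was drawn 250 bp to either side of each summit, and windows that overlapped or touched, from any library, were joined into 67219 regions. A region was called in a library when it held one of its summits, and it went to the gene whose nearer end lay closest to its best-ranked summit, within 50 kb. Of 51389 regions that went to a gene, 199 went to 32 of the 35 members (73.2% of all protein-coding genes had a region): 133 were called at day 0, 134 in the immobilized and 142 in the non-immobilized library. Itgam, Itgax and Itgae, alpha chains of myeloid cells and of T cells in epithelia, had none. A region missing from a list had no summit that passed, which does not make it closed.

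The promoters show best what kind of sequence was open in all libraries and what kind was not. RefSeq's promoter table (GRCm38.p6, the assembly of mm10) held 23 of the 35 members, and the 250 bases before each listed start were read from it, 5′ to 3′ on the gene's strand. A promoter was called in a library when a summit window of it overlapped those bases. Printed are the promoters that scored best in the family, Itgb1 at day 0 and in the non-immobilized library and its partner Itgav in the immobilized library, a pair called in some libraries only (Itga11, Itgb6), 1 called in all libraries with no CG dinucleotide (Lama2) and 1 called in none (Itgam). Capitals mark CG dinucleotides, which cluster in the CpG islands of many broadly used promoters.
Itgb1, chr8:128685404-128685653, plus strand: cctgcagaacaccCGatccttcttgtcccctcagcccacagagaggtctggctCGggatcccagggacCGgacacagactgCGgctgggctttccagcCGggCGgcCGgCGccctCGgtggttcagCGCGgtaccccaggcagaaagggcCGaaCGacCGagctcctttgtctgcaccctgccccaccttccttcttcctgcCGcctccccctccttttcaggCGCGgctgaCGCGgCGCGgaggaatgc
Itgav, chr2:83724147-83724396, plus strand: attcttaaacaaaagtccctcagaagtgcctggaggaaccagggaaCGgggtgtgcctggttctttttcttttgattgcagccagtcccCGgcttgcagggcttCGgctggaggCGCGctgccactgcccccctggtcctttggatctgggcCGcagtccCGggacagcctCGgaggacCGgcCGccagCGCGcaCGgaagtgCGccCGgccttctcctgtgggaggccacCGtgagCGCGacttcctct
Itga11, chr9:62677605-62677854, plus strand: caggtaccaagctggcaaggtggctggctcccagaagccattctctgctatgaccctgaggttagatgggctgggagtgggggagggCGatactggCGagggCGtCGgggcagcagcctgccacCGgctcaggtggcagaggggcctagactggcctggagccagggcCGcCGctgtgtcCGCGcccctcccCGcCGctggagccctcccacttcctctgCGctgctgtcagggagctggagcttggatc
Itgb6, chr2:60722604-60722853, minus strand: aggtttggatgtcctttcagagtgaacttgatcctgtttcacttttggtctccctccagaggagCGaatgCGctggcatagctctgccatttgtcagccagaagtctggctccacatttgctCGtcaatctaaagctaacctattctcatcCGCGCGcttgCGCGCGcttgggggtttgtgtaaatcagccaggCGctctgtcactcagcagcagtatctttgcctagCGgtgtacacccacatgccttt
Lama2, chr10:27616943-27617192, minus strand: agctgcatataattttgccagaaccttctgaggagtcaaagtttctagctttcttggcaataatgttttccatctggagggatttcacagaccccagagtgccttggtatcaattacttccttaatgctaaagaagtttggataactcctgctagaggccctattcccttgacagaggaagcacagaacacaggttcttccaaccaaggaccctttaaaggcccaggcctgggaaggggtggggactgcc
Itgam, chr7:128062390-128062639, plus strand: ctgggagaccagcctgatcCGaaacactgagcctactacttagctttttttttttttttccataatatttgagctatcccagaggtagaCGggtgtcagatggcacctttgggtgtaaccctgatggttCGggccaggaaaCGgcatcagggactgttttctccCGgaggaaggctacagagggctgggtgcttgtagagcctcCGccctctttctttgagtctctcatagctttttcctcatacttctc

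The Itgb1 bases hold 21 CG dinucleotides, the Itgav bases 18, the Itga11 bases 12, the Itgb6 bases 11, the Itgam bases 6 and the Lama2 bases 0. The listed Itgav start lies inside the gene's annotated span, which opens at 83722303 on chromosome 2. Summits over the Itgb1 promoter scored 70.1 at day 0, 64.5 in the immobilized and 79.1 in the non-immobilized library; the score is the authors' −log10 of a p or q value and can be compared only within a library. As a rank within its list, where 0% is the best summit, the promoter stood at 5.53%, 8.76% and 1.57%. It thus stood near the top of every list. Over the Itga11 promoter the scores were 4.49 at day 0 and 4.90 in the non-immobilized library, ranks of 96.0% and 83.9%. Its summit in the immobilized list scored 6.08 and fell under the lowest score of 6.61 kept for that list. Whether the Itga11 promoter counts as called in 2 or 3 libraries is thus set by the list length. Itgb6 was called in the non-immobilized library alone, with a score of 4.095, and Itgam in none.

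Promoters of 12 of the 23 members (52.2%) were called in all 3 libraries, against 50.6% of 16456 genes in the table. For 6 members (26.1%) no listed promoter was called in any library, against 40.2% of all genes: Itga2b, Itga9, Itgam, Itgax, Itgb7 and Lamb3. The remaining 5 were Itga10 (day 0 and immobilized), Itga11 and Lamb1 (day 0 and non-immobilized), Itgb8 (day 0) and Itgb6. The region over the start of Lamb1 was called in all 3 libraries. Its immobilized summit, with a score of 6.88, had a window that missed the promoter bases. For Itga9 the listed start lies well inside the gene. A region 0.077 kb before the annotated span of Itga9 was called in all 3 libraries, with scores of 30.5, 30.6 and 23.4. The promoters called in all 3 held a median of 15 CG dinucleotides (range 0 to 22) and those called in none a median of 5 (range 2 to 10), with medians of 18 and 2 over all genes. CG content thus ran with the call in this family as in the genome at large, and Lama2 and Lamb2, with 0 and 3, were called in all 3 libraries all the same. Lama2 encodes the alpha chain of the muscle basement membrane.

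**Figure D1:**
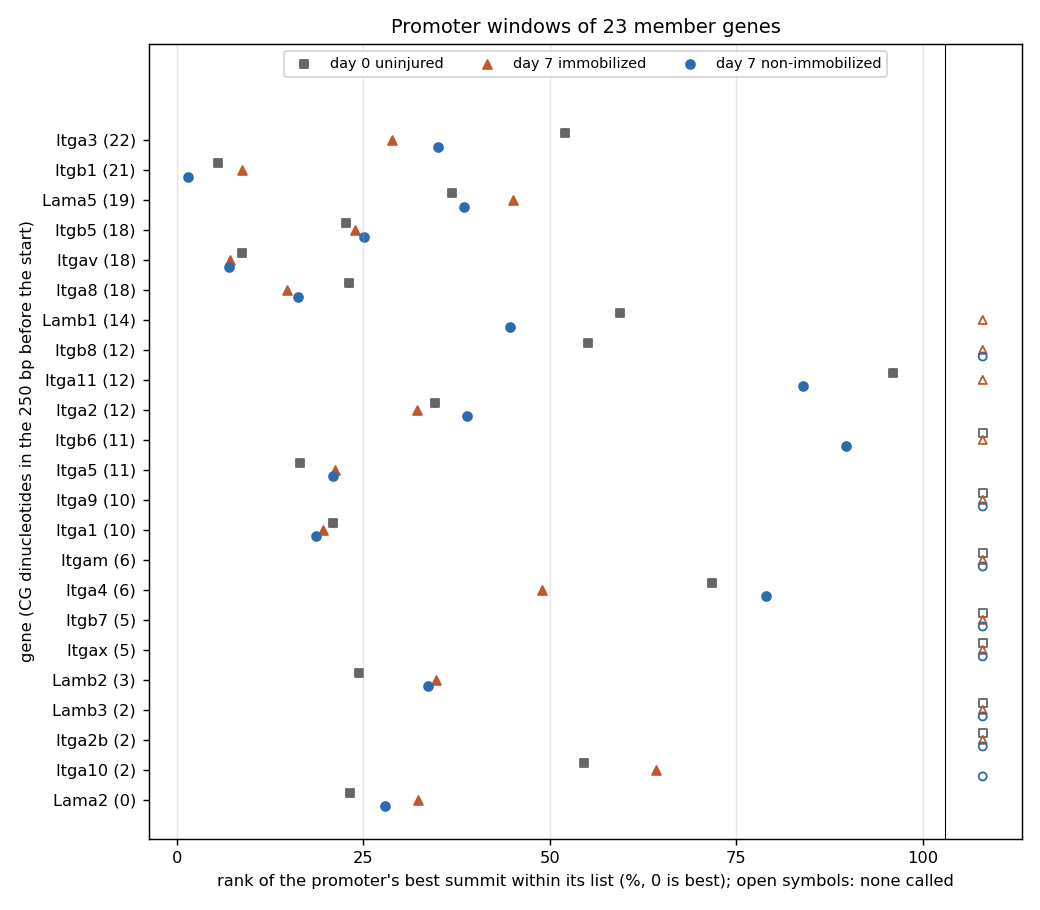
Rank within its list (%, 0 is best, horizontal axis) of the best summit over the promoter of each of 23 integrin and laminin genes, ordered by the number of CG dinucleotides in the 250 bp before the start (in brackets). Filled symbols are called promoters, 1 symbol per library, and open symbols right of the line are promoters with no summit in that library's list; Itgb1 and Itgav stand farthest to the left, and Lama2, with 0 CG, is called in all 3 libraries.

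Motifs were counted on both strands of the same bases, 26 member windows against 20084 windows of all genes. The AP-1 letters TGANTCA were in 1 member window (6.18% of all windows), the GC box GGGCGG in 9 (43.4%), CCAAT in 4 (35.3%), TATAAA in 0 (11.7%), the ETS letters CCGGAA in 1 (15.3%), the TEAD letters GGAATG in 3 (11.5%) and the RUNX letters TGTGGT in 2 (12.2%). Among the printed sequences, Itgb1 holds GGGCGG at positions 100 to 105 and GGAATG at positions 244 to 249, counted from 1 at the 5′ end, and Itgam holds GGGCGG on the opposite strand at positions 204 to 209. These are matches of letters and not measured binding. GGGCGG and CCGGAA each hold a CG, and CCGGAA can share its last 4 letters with GGAATG.

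Integrin and laminin loci carried many regions for single genes. A member with a region had a median of 5.5, against 2 for all 15122 genes with a region, and 6 of the 32 (18.8%) had 10 or more, against 5.93% of all genes. Most lay away from gene ends: 16.6% (interval 11.7 to 22.5%) were within 1 kb of an end, against 27.0% of all regions near genes, and 69.8% lay inside the gene, against 52.5%. Member regions called in all 3 libraries lay within 1 kb of an end in 30.6% of cases (42.5% over all genes), those called in 1 library in 6.76% (11.7%). Regions that came or went between libraries were thus mostly intragenic or distal ones, for the members as for all genes.

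The libraries held 143818952 to 176119937 read pairs, of which an estimated 63640194 at day 0, 75269683 immobilized and 90136518 non-immobilized were aligned and not duplicates. The lists as deposited held 51722, 67404 and 47912 summits, so the equal length left out 28.9% of the immobilized summits, 7.37% of those of day 0 and none of the non-immobilized ones. The lowest scores kept were 3.996 at day 0, 6.61 in the immobilized and 1.33 in the non-immobilized library, and a weak region can therefore be listed in the non-immobilized library and cut from the immobilized one.

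**Figure D2:**
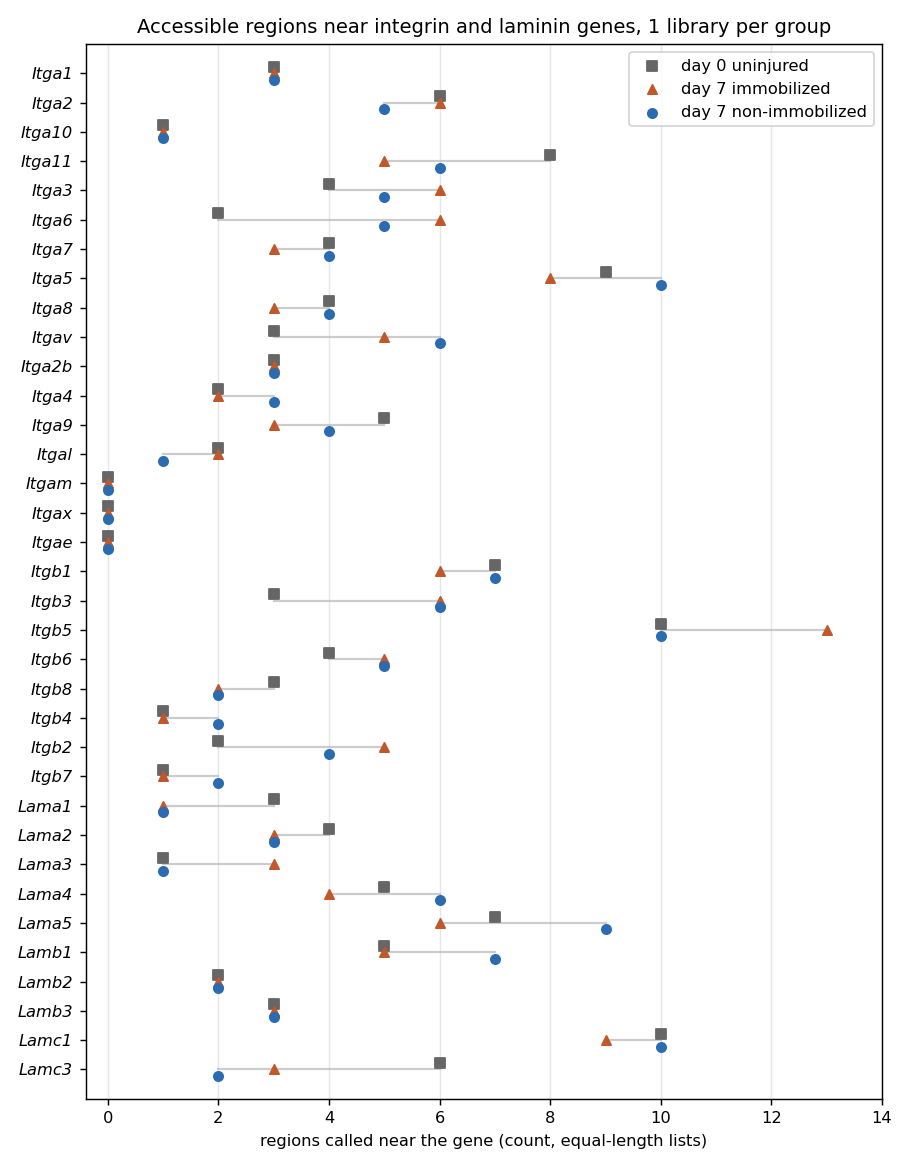
Number of accessible regions called near each of 35 integrin and laminin genes (horizontal axis, count) in the day 0 (squares), day 7 immobilized (triangles) and day 7 non-immobilized (circles) library, on lists of equal length; a grey line joins the lowest and highest. Itgb5 reaches 13 in the immobilized library, and Itgam, Itgax and Itgae sit at 0 in all 3.

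Of the 199 member regions, 85 were called in all 3 libraries (42.7%, interval 35.7 to 49.9%), against a background of 48.5% of regions near any gene. Regions called at day 0 alone numbered 32 (16.1%, background 12.2%), in the immobilized library alone 18 (9.05%, background 11.1%), in the non-immobilized library alone 24 (12.1%, background 10.2%), and in both day 7 libraries alone 24 (12.1%, background 8.30%). A further 7 were shared by day 0 and immobilized (background 4.98%) and 9 by day 0 and non-immobilized (background 4.78%). These shares lay near the background, and the interval of each held it.

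Shares were also taken by family. Integrin genes had 20 of 132 regions in both day 7 libraries and not at day 0 (15.2%, interval 9.51 to 22.4%), above the background of 8.30%. At a limit of 10 kb from a gene end the share was 6.25% (background 6.91%), and the interval also held the background on the 23956 best summits of each list (11.1%, background 7.00%), with windows of 100 bp to either side (11.3%, background 8.74%), within 100 kb (13.3%, background 8.38%) and with regions given first to a gene that contains them (12.6%, background 8.36%). Laminin genes had 4 of 67 regions in both day 7 libraries alone (5.97%, interval 1.65 to 14.6%). Laminin genes had 14 regions at day 0 alone (20.9%, interval 11.9 to 32.6%, background 12.2%) and integrin genes 18 (13.6%, interval 8.29 to 20.7%). In the non-immobilized library alone laminin genes had 11 (16.4%, interval 8.49 to 27.5%, background 10.2%) and integrin genes 13 (9.85%, interval 5.35 to 16.3%). The intervals of the families overlap in each case. The laminin intervals for day 0 alone and for the non-immobilized library alone held the background. The 20 integrin regions were spread over 11 genes: 3 each at Itga6 and Itgav, 2 each at Itga5, Itgb1, Itgb3, Itgb5 and Itgb2, and 1 each at Itga1, Itga2, Itga11 and Itga4. Regions of 1 gene share a locus and are not independent. Of the 24 member regions of this kind, 23 had no day 0 summit in the full deposited list either. The full day 0 list adds only 7.37% of its summits, so its lack of a summit, here and at the single genes below, says little more. Of the 32 regions called at day 0 alone, 11 had an immobilized summit that the equal length left out, as did 11 of the 24 called in the non-immobilized library alone. The immobilized list lost 28.9% of its summits to that length.

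**Figure D3:**
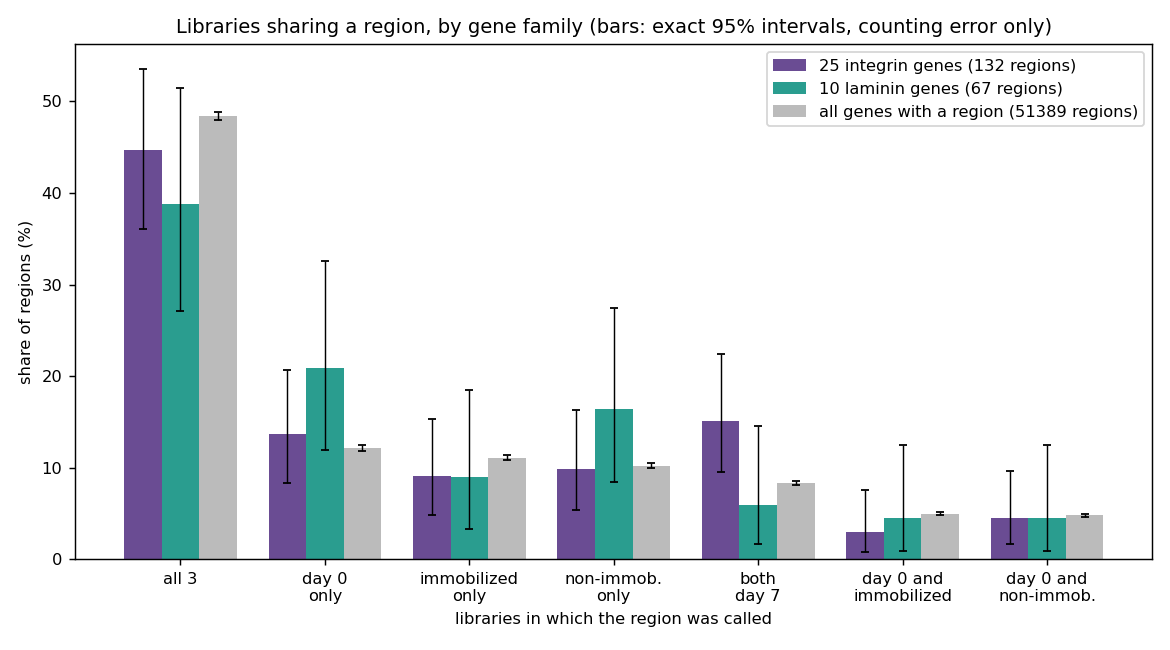
Share of regions (%, vertical axis) by the libraries that called them, for integrin genes (132 regions), laminin genes (67 regions) and all genes with a region (51389 regions); bars on the columns are exact 95% intervals for counting error. The integrin column stands above the grey background for both day 7 libraries (15.2% against 8.30%). The laminin column stands above it for day 0 alone (20.9% against 12.2%) and for non-immobilized alone (16.4% against 10.2%), with intervals that hold the background.

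For a pair of libraries, a gene was called when the number of regions found only in the one exceeded the number found only in the other by 3 or more. Between the day 7 libraries, 33 member regions belonged to the non-immobilized list alone and 25 to the immobilized list alone, with 109 in both; over all genes 17.1% and 18.3% of regions were of these kinds. The non-immobilized share of the one-library regions was 56.9% (interval 43.2 to 69.8%), and 48.3% over all genes. It was 19 to 16 for integrins and 14 to 9 for laminins. Only Lama5 was called higher in the non-immobilized library (1 of 32, background 1.92% of genes) and only Itgb5 in the immobilized one (1 of 32, background 2.44%). More regions in the non-immobilized library were counted for 14 members, more in the immobilized one for 8 and equal numbers for 10. Of 14808 genes with a region in either library, 22.5% had more in the non-immobilized and 24.5% more in the immobilized one. Members had a median of 5.5 regions against 2, and genes with many regions tie less easily.

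Against day 0, the non-immobilized library had 48 member regions of its own to 39, with 94 in both, a share of 55.2% (interval 44.1 to 65.9%; 51.9% over all genes). Itga6, Itgav and Itgb3 were called higher, 3 of 32 (background 3.37%), and Lamc3 lower, 1 of 32 (background 2.55%). The immobilized library had 42 regions of its own to 41 at day 0, with 92 in both, a share of 50.6% (interval 39.4 to 61.8%; 53.4% over all genes). Itga6, Itgb3, Itgb5 and Itgb2 were called higher, 4 of 32 (background 3.83%), and Itga11 and Lamc3 lower, 2 of 32 (background 2.44%). These comparisons share the day 0 library. Genes with many regions pass a difference of 3 more easily: all called members are among the 18 with 5 or more regions, and of all genes with that many, 12.3% were called higher and 9.33% lower in the non-immobilized library against day 0, 12.9% and 9.19% in the immobilized library against day 0, and 7.25% and 8.29% in the non-immobilized against the immobilized library. The median difference per gene was 0 in each comparison, for the members and for all genes. The counts of called members are near those backgrounds, and the genes are described next for what was open at each.

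**Figure D4:**
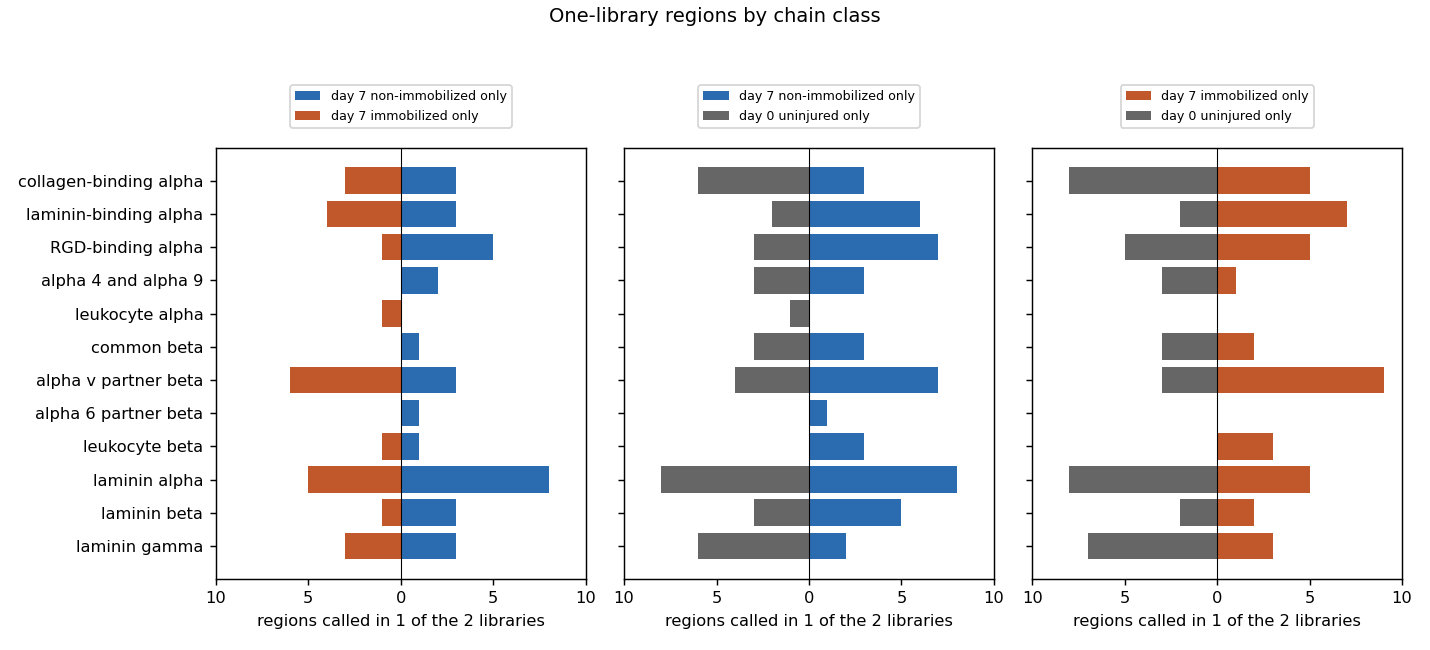
Regions called in only 1 of 2 libraries (horizontal axis, count, to either side of 0), by class of integrin or laminin chain, for the 3 pairs of libraries; colours give the library. In the pair of immobilized and day 0, the alpha v partner beta chains have 9 regions on the immobilized side to 3, the laminin-binding alpha chains 7 to 2 and the laminin gamma chains 3 to 7.

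Among the collagen-binding alpha chains, Itga11, the receptor chain for fibrillar collagen in fibroblasts and mesenchymal cells, had 8 regions at day 0, 5 in the immobilized and 6 in the non-immobilized library. Its best-ranked region, 23.2 kb before the start, was called in all 3 with scores of 20.7, 12.8 and 19.3. Called at day 0 alone were regions 16.6 kb (score 9.41) and 44.2 kb (score 4.48) inside the gene. In the immobilized library alone a region 20.2 kb from the gene's far end scored 16.9, and a day 0 summit of 3.85 there fell under that list's limit of 3.996. A region 2.94 kb past the far end was in both day 7 libraries, at 21.5 and 10.5, and not at day 0. The regions of day 0 alone thus lay toward the start of Itga11, and those of the day 7 lists alone toward its far end. The lower count in the immobilized library passed the difference of 3 under 2 of 9 other settings. Itga1 had 3 regions in each library and Itga2 had 6, 6 and 5, while Itga10, a chain of cartilage collagen receptors, had 1 in each, at its far end. Summits over the Itga10 promoter (10.8 at day 0, 11.5 in the immobilized library) lay in a region that the rule did not give to it.

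Among the laminin-binding alpha chains, Itga6, which pairs with the beta 1 or beta 4 chain, had 2 regions at day 0, 6 in the immobilized and 5 in the non-immobilized library (chr2:71786886-71858427). For this gene and 11 other members the sources used here give no strand, so their ends are named lower and upper by coordinate. Over the lower end of Itga6, all 3 libraries had a summit, with scores of 18.1, 36.9 and 44.0 and ranks of 35.4%, 20.6% and 11.4%. Inside the gene, 5 regions were called at day 7 and none at day 0, and the deposited day 0 list holds no summit in them. At 15.0 kb from the lower end (chr2:71801635-71802545) the immobilized summit scored 15.2 and the non-immobilized one 16.3. At 26 kb the scores were 8.63 and 6.60, and at 20.5 kb from the upper end 11.6 and 5.01. The other two, at 19 kb (7.58) and 27.3 kb (9.78), were called in the immobilized library alone. Below the gene, 30.9 kb away, a region was called at day 0 alone (6.49). Another, 34.8 kb away, was called in the non-immobilized library alone (7.01), with an immobilized summit of 6.30 under the limit. The body of Itga6 beyond its lower end was thus marked by summits in the day 7 lists only, and the gene was called against day 0 under 6 of 9 other settings in each day 7 library.

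Itga3, the other laminin-binding chain that epithelia use widely, had 4, 6 and 5 regions, of which 1 at 6.48 kb inside the gene was called in the immobilized library alone with a score of 27.0. It lacked a summit in the other deposited lists. Itga7, the laminin receptor chain of muscle, had 4, 3 and 4 regions. Its best-ranked region, 2.61 kb inside the gene from its lower end, scored 33.1 at day 0, 16.4 in the immobilized and 13.3 in the non-immobilized library, ranks of 19.6%, 45.9% and 39.4%. It ranked higher at day 0 than in either day 7 library, while the region at the lower end ranked 46.6%, 36.7% and 29.3%. Regions of 1 library were at day 0 (score 4.92) and in the non-immobilized library (6.45). In the day 0 one an immobilized summit of 4.71 fell under the limit.

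Among the RGD-binding alpha chains, Itgav, which forms the vitronectin receptors and those that release latent TGF-beta, had 3 regions at day 0, 5 in the immobilized and 6 in the non-immobilized library. Its promoter region ranked 8.73%, 7.15% and 7.09%, with scores of 58.4, 69.5 and 55.2. Both day 7 libraries had 3 regions that day 0 lacked: 21.4 kb before the gene (10.4 and 13.1), 36.5 kb inside it (13.8 and 15.7) and 37.5 kb inside it (7.17 and 8.19). The full day 0 list has no summit in them either. One region, 35.3 kb from the far end, was called at day 0 alone (5.84), with an immobilized summit of 4.47 under the limit. A region of the non-immobilized library alone (5.01) had an immobilized summit of 6.02 under the limit, so the difference of the day 7 libraries at Itgav rests on the list length. Itga5, the fibronectin receptor chain, had 9, 8 and 10 regions. Its start ranked 16.6%, 21.2% and 20.9% with scores of 38.3, 35.9 and 26.9, and 2 regions before the gene, 3.85 and 16.5 kb from its start, were called in both day 7 libraries (10.1 and 13.9, then 8.73 and 10.98). A region 1.67 kb past the far end of Itga5 was called at day 0 alone (6.75). Another, 17.1 kb before its start, was called in the non-immobilized library alone (6.84), with an immobilized summit of 4.92 under the limit. Itga8 had 4, 3 and 4 regions. Itga2b, the platelet chain, had 3 in each library, the best of them 2.70 kb inside the gene from its start with scores of 80.2, 67.7 and 60.8.

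Of the alpha 4 and alpha 9 chains, which bind VCAM-1, fibronectin or tenascin, Itga4 had 2, 2 and 3 regions and Itga9 had 5, 3 and 4. Both regions of Itga4 that were called in day 0 alone or in both day 7 libraries lie inside its neighbour Cerkl. Leukocyte alpha chains were near empty. Itgal, of the lymphocyte receptor LFA-1, had 2, 2 and 1 regions. Inside Itgae 2 regions were called, 1 in all 3 libraries (scores of 46.5, 63.5 and 34.7) and 1 in the immobilized library (12.4), but both lie nearer to Haspin, a gene nested in Itgae, and went to it by the rule.

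The beta chains carry the tails to which talin and kindlin bind, and Itgb1, the partner of most alpha chains, had 7, 6 and 7 regions. Apart from the promoter given above, 3 regions were called at day 0 alone (10.6, 5.20 and 4.59), of which the first had an immobilized summit of 6.60 just under the limit. One was called in the non-immobilized library alone (7.48). Both day 7 libraries shared a region 18.7 kb before the gene (19.1 and 8.50) and one 19.4 kb inside it (10.6 and 5.01).

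The partners of the alpha v chain had 20 regions at day 0, 26 in the immobilized and 23 in the non-immobilized library. Against day 0, the non-immobilized library had 7 of its own to 4 (63.6%, interval 30.8 to 89.1%, against 51.9% over all genes). The immobilized library had 9 of its own to 3 at day 0 (75%, interval 42.8 to 94.5%, against 53.4% over all genes). Both intervals held the share over all genes. Other classes leaned as far. Laminin-binding alpha chains had 7 immobilized regions to 2 at day 0 (77.8%, interval 40.0 to 97.2%), and collagen-binding ones 5 to 8. RGD-binding alpha chains had 5 non-immobilized regions to 1 immobilized (83.3%, interval 35.9 to 99.6%, against 48.3% over all genes). These intervals too held the share over all genes. Itgb3, of the vitronectin receptor of osteoclasts, platelets and vessels, had 3 regions at day 0 and 6 in each day 7 library. The region at its lower end ranked 34.2%, 37.7% and 25.9%. The regions of both day 7 libraries lay inside the gene, 11.6 kb (10.2 and 7.77) and 19.9 kb (7.96 and 5.08) from its lower end. A region 18.2 kb from that end was called in the immobilized library alone (7.204), and one 1.28 kb before it in the non-immobilized library alone (4.999). No deposited day 0 summit fell in any of these 4 regions.

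Itgb5, another vitronectin receptor chain that mesenchymal cells use, had 10 regions at day 0, 13 in the immobilized and 10 in the non-immobilized library, the largest number of any member in 1 library. The best-ranked of them, 32.3 kb from the far end, scored 32.4, 45.7 and 27.8, and the start scored 28.7, 32.1 and 22.2. In the immobilized library alone were regions 42.6 kb inside the gene (14.3) and 15.7 kb from its far end (10.3). A region 44.5 kb from the far end was called at day 0 alone (6.63), with an immobilized summit under the limit. Both day 7 libraries had regions 7.29 kb from the start (19.98 and 5.14) and 26.9 kb from the far end (6.97 and 5.08). Itgb5 was called higher in the immobilized library against both others, under 6 of 9 other settings in each case. Itgb6, a chain of epithelia, had 4, 5 and 5 regions, of which 2 were called in the immobilized library alone (14.9 and 16.3), 2 in the non-immobilized library alone (2.55 and 4.095) and 1 at day 0 alone (8.05). The day 0 region of Itgb6 (8.05) had an immobilized summit under the limit. Itgb8 had 3, 2 and 2.

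Itgb4, which joins alpha 6 in the hemidesmosomes of epithelia, had 1 region at day 0, 1 in the immobilized and 2 in the non-immobilized library. The shared one lay 0.240 kb from the lower end, with scores of 8.57, 21.5 and 13.7, and the other (4.27) had an immobilized summit of 4.84 under the limit. Itgb2, the beta chain of leukocytes, had 2, 5 and 4 regions. Both day 7 libraries had a region 1.52 kb from its lower end (12.9 and 5.40) and one 14.5 kb from its upper end (12.8 and 5.80), where a day 0 summit of 3.29 fell under the limit, and the immobilized library alone one beyond the upper end (15.0). Its best-ranked region, 14.8 kb from the lower end, scored 25.4, 23.4 and 11.6. Itgb7 had 1, 1 and 2.

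**Figure D5:**
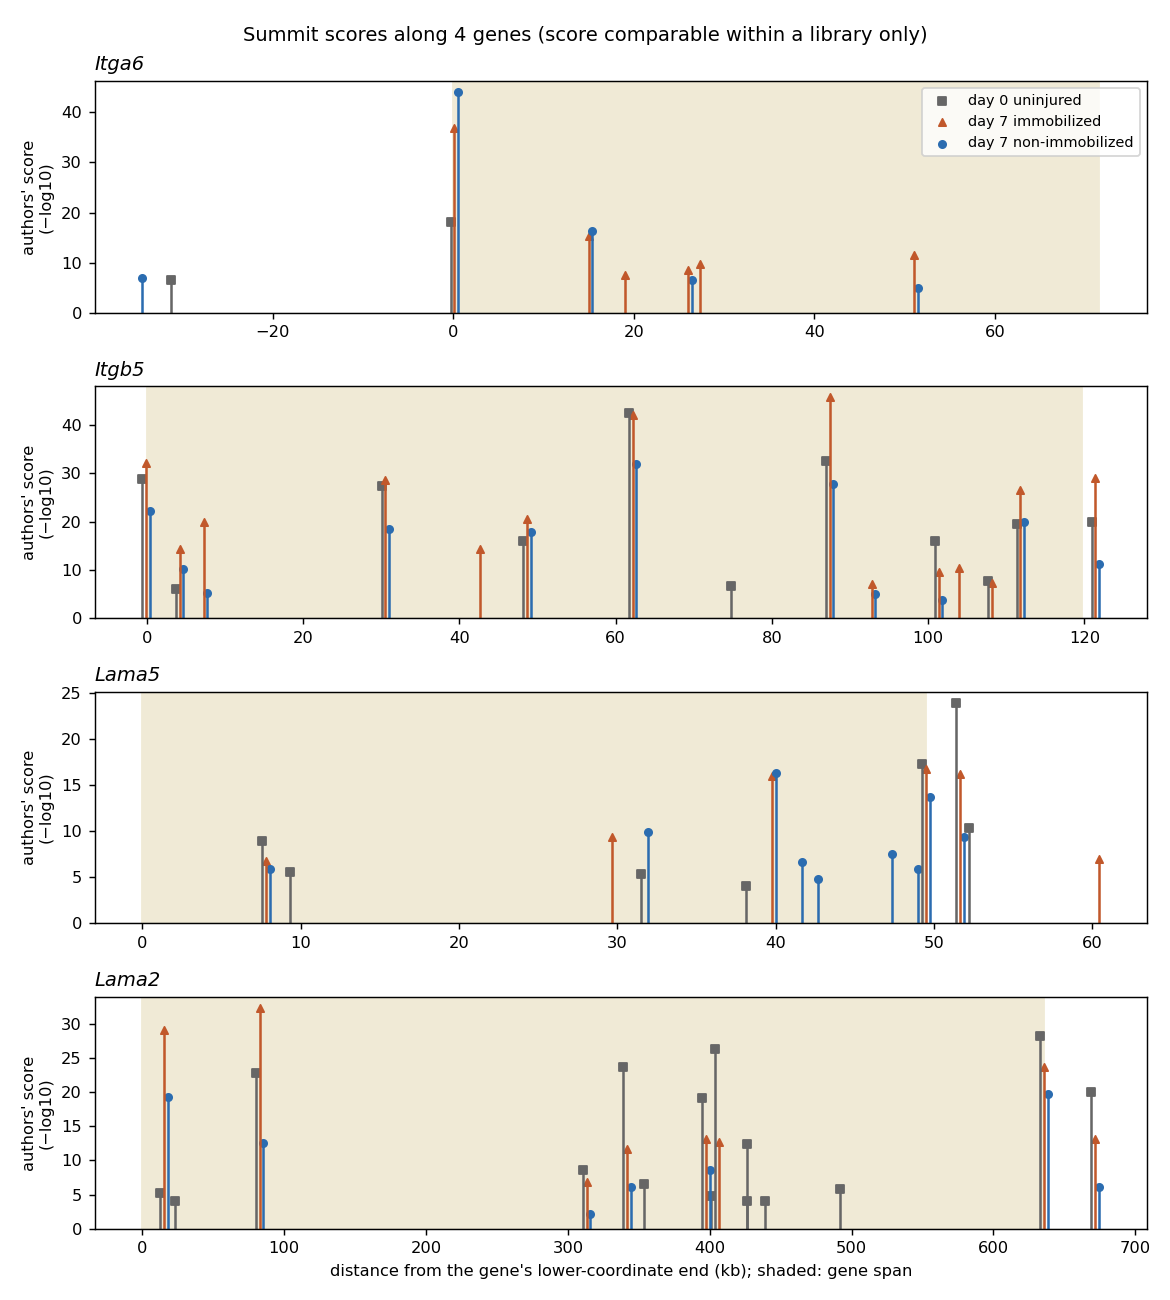
Authors' score (−log10 of a p or q value, vertical axis) of each summit along Itga6, Itgb5, Lama5 and Lama2, by distance from the gene's lower-coordinate end (kb, horizontal axis); shading is the gene, and symbols of 1 region are set slightly apart. Inside Itga6 the summits beyond the lower end belong to the day 7 libraries, and inside Lama2 the middle of the gene holds summits of day 0 that the others lack.

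Among the laminin alpha chains, Lama5, of the laminins of vessels and epithelia, had 7 regions at day 0, 6 in the immobilized and 9 in the non-immobilized library. Its best-ranked region was 2.12 kb before the start, with scores of 23.9, 16.2 and 9.37. Inside the gene, within 8.09 kb of the start, 4 regions were called in the non-immobilized library alone (6.66, 4.78, 7.54 and 5.88). Of these 4, 3 had an immobilized summit that the equal length left out (6.21, 5.58 and 5.09), and with the lists as deposited the difference turned from 3 to -5. Called at day 0 alone were 3 regions (5.59, 4.02 and 10.4) and in the immobilized library alone 2 (9.32 and 7.00). The day 0 region that scored 5.59 had an immobilized summit that the equal length left out. Lama4, of vessel and muscle laminins, had 5, 4 and 6 regions. It had 3 of the non-immobilized library alone (10.1, 2.73 and 6.09) and 1 of day 0 (10.04). The non-immobilized region that scored 10.1 had an immobilized summit that the equal length left out. The region at the lower end of Lama4 ranked 39.9%, 47.8% and 30.1%.

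Lama2, the alpha chain of muscle laminin, spans 636 kb, so the limit of 50 kb from an end leaves out most of it. By the rule it had 4, 3 and 3 regions, of which 1 was called at day 0 alone, 25.5 kb inside the gene from its far end (3.996). Its promoter scored 28.1, 23.6 and 19.7, and a region 15.0 kb from its far end ranked high at day 7, with scores of 5.20, 29.1 and 19.3. Over the whole span 14 regions were called, all 14 at day 0, 7 in the immobilized and 6 in the non-immobilized library. The 11 of them over 50 kb from both ends counted 11, 5 and 4. Of the 7 called at day 0 alone over the span, the best scored 12.4. The others scored from 6.49 down to 3.996, the lowest score kept at day 0, at which several of them stood. Of the 7, 1 had a summit in the immobilized list as deposited. The body of Lama2 thus held more called regions at day 0 than in either day 7 library, most of them outside what the rule by gene ends counts. Whole-span counts were not taken over all genes, so whether this is particular to Lama2 was not measured.

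Lama3, of the laminin of epidermis, had 1 region at day 0, 3 in the immobilized and 1 in the non-immobilized library. Over its lower end the scores were 23.8, 42.7 and 19.9, and the 2 of the immobilized library alone scored 16.2 and 10.2. Over its span of 250 kb it had 5, 9 and 5. Itga9, of 294 kb, had 11, 6 and 10 over its span. In all, 38 regions lay inside 9 members and over 50 kb from both ends, 11 each in Lama2 and Itga9 and 7 in Lama3. Of the 38, 29 were called at day 0, 21 in the immobilized and 22 in the non-immobilized library. The shares over all genes cover only regions within 50 kb of a gene end, so these counts have no background. Lama1, of the laminin of early embryos, had 3, 1 and 1.

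Of the laminin beta chains, Lamb1, found in most laminins, had 5, 5 and 7 regions, and 3 were called in the non-immobilized library alone (8.53, 3.003 and 13.95). The immobilized list had summits of 5.50 and 6.26 under its limit in 2 of those. Its best-ranked region, 26.6 kb from the far end, scored 14.6, 13.9 and 15.4, and 1 region was called at day 0 alone (10.7). The region of day 0 alone had an immobilized summit under the limit. Lamb2, of muscle and nerve junctions, had 2 in each library. Lamb3, of epidermal laminin, had 3 in each, but not the same 3: a region at chr1:193301059-193301652 was called in both day 7 libraries (24.8 and 6.70) and one 17.1 kb from the far end at day 0 alone (8.13). At the latter an immobilized summit fell under the limit. The best-ranked region of Lamb3 scored 27.5, 35.4 and 28.2.

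Of the gamma chains, Lamc1, shared by most laminins, had 10, 9 and 10 regions, the best of them 0.326 kb from the gene's upper end, with scores of 64.1, 59.6 and 47.3 and ranks of 7.09%, 10.4% and 9.93%. A region 32.3 kb inside the gene from that end was called in both day 7 libraries only, at 34.7 and 17.9. The immobilized library alone had 2 (15.9 and 8.78), day 0 alone 2 (12.8 and 5.74) and the non-immobilized library alone 1 (2.88). The day 0 region that scored 12.8 had an immobilized summit under the limit. Lamc3, a gamma chain of a few tissues, had 6 regions at day 0, 3 in the immobilized and 2 in the non-immobilized library. It was called lower in both day 7 libraries against day 0. Its 3 regions of day 0 alone (8.13, 6.71 and 6.51) had no summit in either other deposited list, while its best-ranked region, 0.492 kb from the gene's upper end, was kept with scores of 30.2, 36.1 and 18.9.

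Genes that work with these chains were read in the same way, 41 in all, of which 38 had a region (196, 196 and 209 regions by library). Among them 2 were called higher in the non-immobilized than the immobilized library (1.92% of all genes) and 3 lower (2.44%): Hspg2, the basement membrane proteoglycan perlecan, by 6, Col4a2, of its collagen network, by 5, and Cdh1, the epithelial cadherin, and Parva, an adaptor to actin, by -4 each. All called partners have 5 or more regions, and the shares among all such genes, 7.25% and 8.29% here, are the closer background. Against day 0 the non-immobilized library had 7 higher and 3 lower (12.3% and 9.33% of genes with 5 or more regions, 3.37% and 2.55% of all genes), with Hspg2 and Col4a2 at 6 and Fbn1, the RGD protein fibrillin, at -6. The immobilized library had 2 higher and 5 lower (12.9% and 9.19% of genes with 5 or more regions, 3.83% and 2.44% of all genes), with Cdh1 at 5, Ccn1 at 4 and Egflam and Fermt2 at -4.

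Markers of other cell types moved with these libraries. Endothelial markers had regions at 12 of 12 genes, 31 in sum at day 0, 44 in the immobilized and 70 in the non-immobilized library, and Sox17, Sox18 and Robo4 were at 0 at day 0. Of the 12, 9 had more in the non-immobilized than in the immobilized library, 1 fewer (Vwf, with 2, 8 and 5) and 2 equal numbers. Of the 14 basement membrane genes among the partners, 5 had more regions in the non-immobilized than in the immobilized library, 2 fewer and 7 equal numbers. Their median difference was 0, the same as over all genes. In the background of all genes, the surplus lay on the non-immobilized side for 22.5% and on the immobilized side for 24.5%. By regions, the basement membrane genes had 24 in the non-immobilized list alone and 11 in the immobilized list alone. That is a share of 68.6% (interval 50.7 to 83.1%), above the 48.3% over all genes. Of the 24, 7 were at Hspg2 and 5 at Col4a2, and regions of 1 gene are not independent. The part of endothelial cells in the counts of Lama5, Lama4, Hspg2 and Col4a2 was not tested. Keratinocyte markers had regions at 10 of 10 genes, 11, 52 and 14 in sum, with Krt5, Krt14, Krt17 and Dsg3 at 0 at day 0 and in the non-immobilized library. Of the 10, 9 had more in the immobilized than in the non-immobilized library, and Trp63 had equal numbers (1, 3 and 3). Cdh1 is itself 1 of these markers. The part of keratinocytes in the immobilized-only regions of Itga3, Itga6, Itgb5, Itgb6 and Lama3 was not tested. Pericyte and smooth muscle markers (6 of 6 genes) summed to 37, 27 and 28 and skeletal muscle markers (5 of 5) to 20, 14 and 12. Both sums were highest at day 0, though the pericyte marker Cspg4 went the other way (7, 9 and 8). The span counts of Lama2 and the best region of Itga7 were also highest at day 0. The part of these cell types in those was not tested. Myeloid markers had regions at 4 of 7 genes (9, 10 and 10 in sum), with Lyz2, Adgre1 and Itgam at 0 throughout, lymphoid ones at 2 of 5 (1 in each) and Schwann ones at 3 of 3 measured (3, 2 and 4). Mesenchymal markers, the labelled cell type, had regions at 8 of 8 genes, 40, 39 and 37 in sum, and the single genes went different ways: Pdgfra had 6, 3 and 4, Prrx1 8, 4 and 6, Pdgfrb 6, 4 and 4, Cd44 7, 13 and 11 and Ly6a 2, 2 and 0. In bulk chromatin, more cells of a type and more open chromatin per cell cannot be told apart.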

How the data were processed

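The members and all gene lists were chosen with earlier results of these data known. The sample labels give the groups and, for the libraries, Omni-ATAC. Of tools, the submitters' processing notes list MACS2 2.1.2, Bowtie2 2.3.4.1, bedtools 2.28.0, edgeR 3.26.5, SAMtools 1.2, Picard, FastQC, cutadapt and Trim Galore, and as build mm10, without roles. How reads were shifted and filtered and how peaks were thresholded is not given in the sources used here. Each deposited list holds 1 summit position per peak and the authors' score, read as −log10 of a p or q value, since the files do not say which. The authors called peaks in each library on its own, as the deposited lists show. Per the file headers, the statistics of the runs hold counts of reads, duplication as a fraction and alignment as a percent.

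From these files, equal-length lists of 47912 summits, regions (250 bp on each side) and gene assignments (50 kb, RefSeq gene table of GRCm38.p6) were computed. Estimated unique pairs are the product of trimmed pairs, aligned percent and the fraction not duplicated, an upper estimate. A gene was called at a difference of 3 regions. Only chromosomes 1 to 19 are in the lists. Positions count from 1. Full values were given for called members and for Itgb1, Itgav, Itga5, Itga7, Itga11, Itgb4, Itgb2, Lama2, Lama4, Lama5, Lamb1, Lamb3 and Lamc1 (the best-ranked region and those called in 1 library only), and for up to 4 partner genes per comparison by size of difference. Regions called in both day 7 libraries, whole-span counts and Itga3, Itgb6, Itga2b and Lama3 were singled out after their values were seen. Region building was tested on simulated data. Alternatives were other list lengths, a stricter threshold, windows of 100 and 500 bp, limits of 10 and 100 kb, regions over 1 kb from gene ends, and giving regions first to a gene that contains them. Software was scipy 1.17.1, pandas 2.3.3, matplotlib 3.10.9 and numpy 2.4.6 under Python 3.11.15.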

Additional observations from a re-analysis of the deposited data

How the results depend on the processing

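With 1 library per group, depth and list length limit what can be read. No paired analysis was possible because each group is 1 library and the labels give no replicate numbers; for the same reason no library could be left out. With the lists as deposited, in which the immobilized one is longest, the share of one-library regions on the non-immobilized side fell to 16.9% for all members, 15.7% for integrins and 18.8% for laminins (all genes 19.4%), and the immobilized share against day 0 rose to 74.5%, 78.6% and 66.7% (all genes 73.1%), so at both settings the list length moves the members much as it moves all genes. Called members were then 8 (non-immobilized against immobilized) and 11 (immobilized against day 0), against 2 and 6. Lama5 turned from 3 to -5 with the lists as deposited and to -1 on the 23956 best summits of each list, at which 1 member was called between the day 7 libraries, 2 for the non-immobilized library against day 0 and 1 for the immobilized library against day 0.

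Within 10 kb of a gene end the shares between the day 7 libraries were 77.8% (14 to 4 regions), 71.4% (10 to 4) and 100% (4 to 0) for all members, integrins and laminins (all genes 49.6%), and the immobilized shares against day 0 were 38.5% for all members and 38.9% for integrins (all genes 53.9%), with 1, 1 and 0 members called, and 6.25% of integrin regions in both day 7 libraries alone. This last result was chosen after seeing the data. Counting only regions among the 23956 best summits of 1 list with no summit anywhere in the full other list, the shares were 16.7%, 0% and 33.3% between the day 7 libraries (all genes 35.2%), 90.9%, 100% and 80% for the non-immobilized library against day 0 (all genes 61.8%), and 83.3%, 85.7% and 80% for the immobilized library against day 0 (all genes 72.7%), on 6, 11 and 12 member regions, with 0 members called in each pair. Between the day 7 libraries, 5 members were called within 100 kb, 5 with regions given to the gene that holds them, and 1 over 1 kb from gene ends. The cause of these moves was not tested. Between the day 7 libraries, the share passed to the immobilized side with the lists as deposited and with that last rule of absence, stayed at 60.7% on the 23956 best summits of each list, and at 500 bp to either side was 50% (21 to 21 regions) for all members and 41.7% (10 to 14) for integrins, which were at 48.4% (15 to 16) over 1 kb from gene ends. In all, 90 values of shares and counts stayed inside their main interval or within 1.5 times the main count. The 60.7%, 50%, 41.7% and 48.4% just given are among them. Of the values of single called genes under these settings, 62 kept their call, 44 fell short of it and 2, both of Lama5, turned.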
